A study of Mus musculus with 3 samples.

Results

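The endothelin system was described here through 5 of the 31053 genes counted in mouse islets: the ligand genes Edn1 and Edn3, the receptor genes Ednra and Ednrb, and Ece1, the gene of endothelin-converting enzyme. The genes were picked by symbol, as a family, and the count matrix of every library holds each of them once. Single cells came from purified and dissociated islets of Langerhans of 3 female NOD-SCID mice aged 10 to 11 weeks, all non-diabetic, with 1 droplet library per mouse and 1 group in all. Mice of this strain carry the scid mutation, so that the islets come from hosts without mature T and B cells. With no second condition, the comparisons are between cell classes, and each class was summed within each mouse, so that n is the number of mice. All 3 mice share strain, sex and age, and nothing here speaks of another strain or of diabetes.

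Endothelins are short peptides best known for constricting blood vessels. They are cut from larger precursors, first by furin-type enzymes and then by endothelin-converting enzyme at the cell surface. The receptor ETA, made from Ednra, is typical of the contractile cells around vessels and prefers endothelin-1. ETB, made from Ednrb, binds all endothelins alike. In endothelium ETB leads to release of nitric oxide and clears the peptide, whereas in the embryo endothelin-3 acting on ETB steers the neural crest cells that form enteric neurons and pigment cells. Islets are richly vascularised, and glucagon-secreting alpha cells lie close to capillaries, their pericytes and the Schwann cells of the islet border.

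Because the results below separate the 2 ligands by cell class, the coding stretch of each mature peptide is shown first, as annotated in GENCODE M21 on GRCm38. Each lies in exon 2 of its gene on the plus strand and runs 5′ to 3′, and capitals mark the bases that differ between the pair.
Edn1, chr13:42303649-42303711: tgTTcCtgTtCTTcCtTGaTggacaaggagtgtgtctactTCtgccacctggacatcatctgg
Edn3, chr2:174761749-174761811: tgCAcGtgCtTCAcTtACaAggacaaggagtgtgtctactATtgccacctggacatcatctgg
The stretches hold the same base at 50 of 63 positions and encode the same amino acid in 15 of 21 codons. The differences gather in the first 7 codons, and only 1 codon differs after them. Edn1 (ENSMUSG00000021367) spans positions 42301476 to 42307990 of chromosome 13 and Edn3 (ENSMUSG00000027524) positions 174760619 to 174784042 of chromosome 2. Ednra (ENSMUSG00000031616) lies on the minus strand of chromosome 8 from 77663031 to 77724464. Ednrb (ENSMUSG00000022122) lies on the minus strand of chromosome 14 from 103814625 to 103844402, and Ece1 (ENSMUSG00000057530) on the plus strand of chromosome 4 from 137862237 to 137965229. Antisense gene models overlap Edn1 (Gm47118), Ednra (4933431K23Rik) and Ece1 (Gm13012), and whether the counting used strand is not given in the sources used here.

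The libraries held 32389170 to 57849496 UMIs (unique molecular identifiers, each standing for 1 captured RNA molecule) in 16162 barcodes, of which 7173 were kept as cells. Cells were grouped from marker genes other than the 5 described here, and a class is called "like" a cell type because the names were rebuilt from the markers of its cluster. Every named class held UMIs of all of its defining markers, which sets no class apart, since alpha-like cells also held UMIs of all 10 endothelial markers. Each marker was also higher in its class than in the other kept cells, except in gamma-like (5 of 6) and duct-like (9 of 10) cells. The names came from these same markers, so this is no separate support for them. Mouse 2 stood apart in free RNA, estimated from the insulin UMIs of endothelial-like and macrophage-like cells pooled. The estimate was 70.4% of their UMIs, against 18.5% in mouse 1 and 13.0% in mouse 3. In mouse 2, beta markers made up 17.6% of macrophage-like UMIs but 3.43% of endothelial-like UMIs, so 70.4% does not describe endothelial-like cells alone. In mice 1 and 3 they made up 4.75% and 1.65% of macrophage-like UMIs, and 4.61% and 1.55% of endothelial-like UMIs. The alternative with free RNA subtracted took the estimated share of a mouse off every class alike. For mouse 2 this was 70.4% in all classes, so values under that setting carry the same limit. The library of mouse 2 also shares 148 barcodes with that of mouse 1, of which 14 were kept as cells in both. A cluster of 451 cells (6.88%, 14.3% and 0.0576% of the kept cells of mice 1, 2 and 3) led by acinar genes but with 37.9% of its UMIs from 1 hormone stayed unnamed by a rule set after seeing it. Levels are given as CPM, the UMIs of a gene per 1000000 UMIs of its class in 1 mouse. Ranges in brackets are 95% exact intervals that cover counting error only.

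Edn3 marked the alpha-like cells. Its level there was 55.2 CPM in mouse 1 (365 UMIs in 221 cells), 43.3 CPM in mouse 2 (323 UMIs in 333 cells) and 77.0 CPM in mouse 3 (1609 UMIs in 1277 cells). Beta-like cells held 0.882, 0.985 and 0.174 CPM, from 5, 19 and 2 UMIs, and delta-like cells 3.54, 1.26 and 3.31 CPM. Of the 26 beta-like UMIs, 18 came from a shallow cluster of 558 cells (median 4455.5 UMIs), 517 of them from mouse 2. Its 30 leading genes began with Ghrl, the ghrelin gene, and held 5 beta markers, with 1 in the first 10, so its name is less secure. That cluster held 5.19 CPM, against 0.144 and 0.315 CPM in the deeper beta-like clusters. The alpha-like values of all 3 mice lay above every beta-like and delta-like value, and the groups did not overlap. Of all Edn3 UMIs in kept cells, 85.1% to 89.0% were in alpha-like cells.

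The level of Edn3 was 49.8-fold higher in alpha-like than in beta-like cells (log2 fold change 5.64, SE 0.32, edgeR adjusted p = 1.94e-12), and higher in 3 of 3 mice. The size rests on the few beta-like UMIs: it was 6.76 in log2 without mouse 2, 4.99 without mouse 3, and between 3.41 with cells thinned and 10.56 with free RNA subtracted over all 20 alternatives, each of them called. Against delta-like cells it was 34.6-fold higher (log2 5.11, SE 0.33, edgeR adjusted p = 2.55e-11), with a range of 3.51 to 6.55 over 19 alternatives. These tests ran on UMI sums of all named classes, scaled by TMM, with the mouse as a block and Benjamini-Hochberg adjustment over 13379 genes. Under the same fit 36.7% of all genes tested were called between alpha-like and beta-like cells (18.4% higher and 18.3% lower in alpha-like cells) and 28.7% between alpha-like and delta-like cells, so that a call alone sets no gene apart here. In the first of these comparisons 3 members were called. Besides Edn3 these were Ece1, lower in alpha-like cells and described further on, and Ednra, with 32 UMIs in 1831 alpha-like cells against 6 UMIs in 1225 beta-like cells (log2 1.62, SE 0.62, edgeR adjusted p = 0.0327). Ednrb was not called (4 UMIs against 13), and Edn1 had no UMI in either class.

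At least 1 Edn3 UMI was found in 48.9%, 40.2% and 46.0% of the alpha-like cells of mice 1, 2 and 3. In beta-like cells, which are not known to make the peptide, the shares were 3.50%, 2.43% and 0.587%, at median depths of 6603 to 33742 UMIs per cell against 16192 to 27037 in alpha-like cells. After every cell was thinned to 2000 UMIs, the alpha-like shares fell to 9.09%, 8.21% and 12.9%, and the beta-like shares to 0.714%, 1.11% and 0.00%. The order of both classes was the same with and without thinning. Of the 3 alpha-like clusters, the shallow one (491 cells, median 3649 UMIs) held 22.5, 35.4 and 31.9 CPM in mice 1, 2 and 3. The largest one (1012 cells, median 21649 UMIs) held 61.1, 43.8 and 80.5 CPM, and the other (328 cells, median 20964 UMIs) 59.8, 43.7 and 110 CPM. The shallow cluster was lowest in every mouse, by least in mouse 2, and the other clusters were within 2 CPM of each other in mice 1 and 2. What part depth or free RNA has in this gap was not tested.

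**Figure D1:**
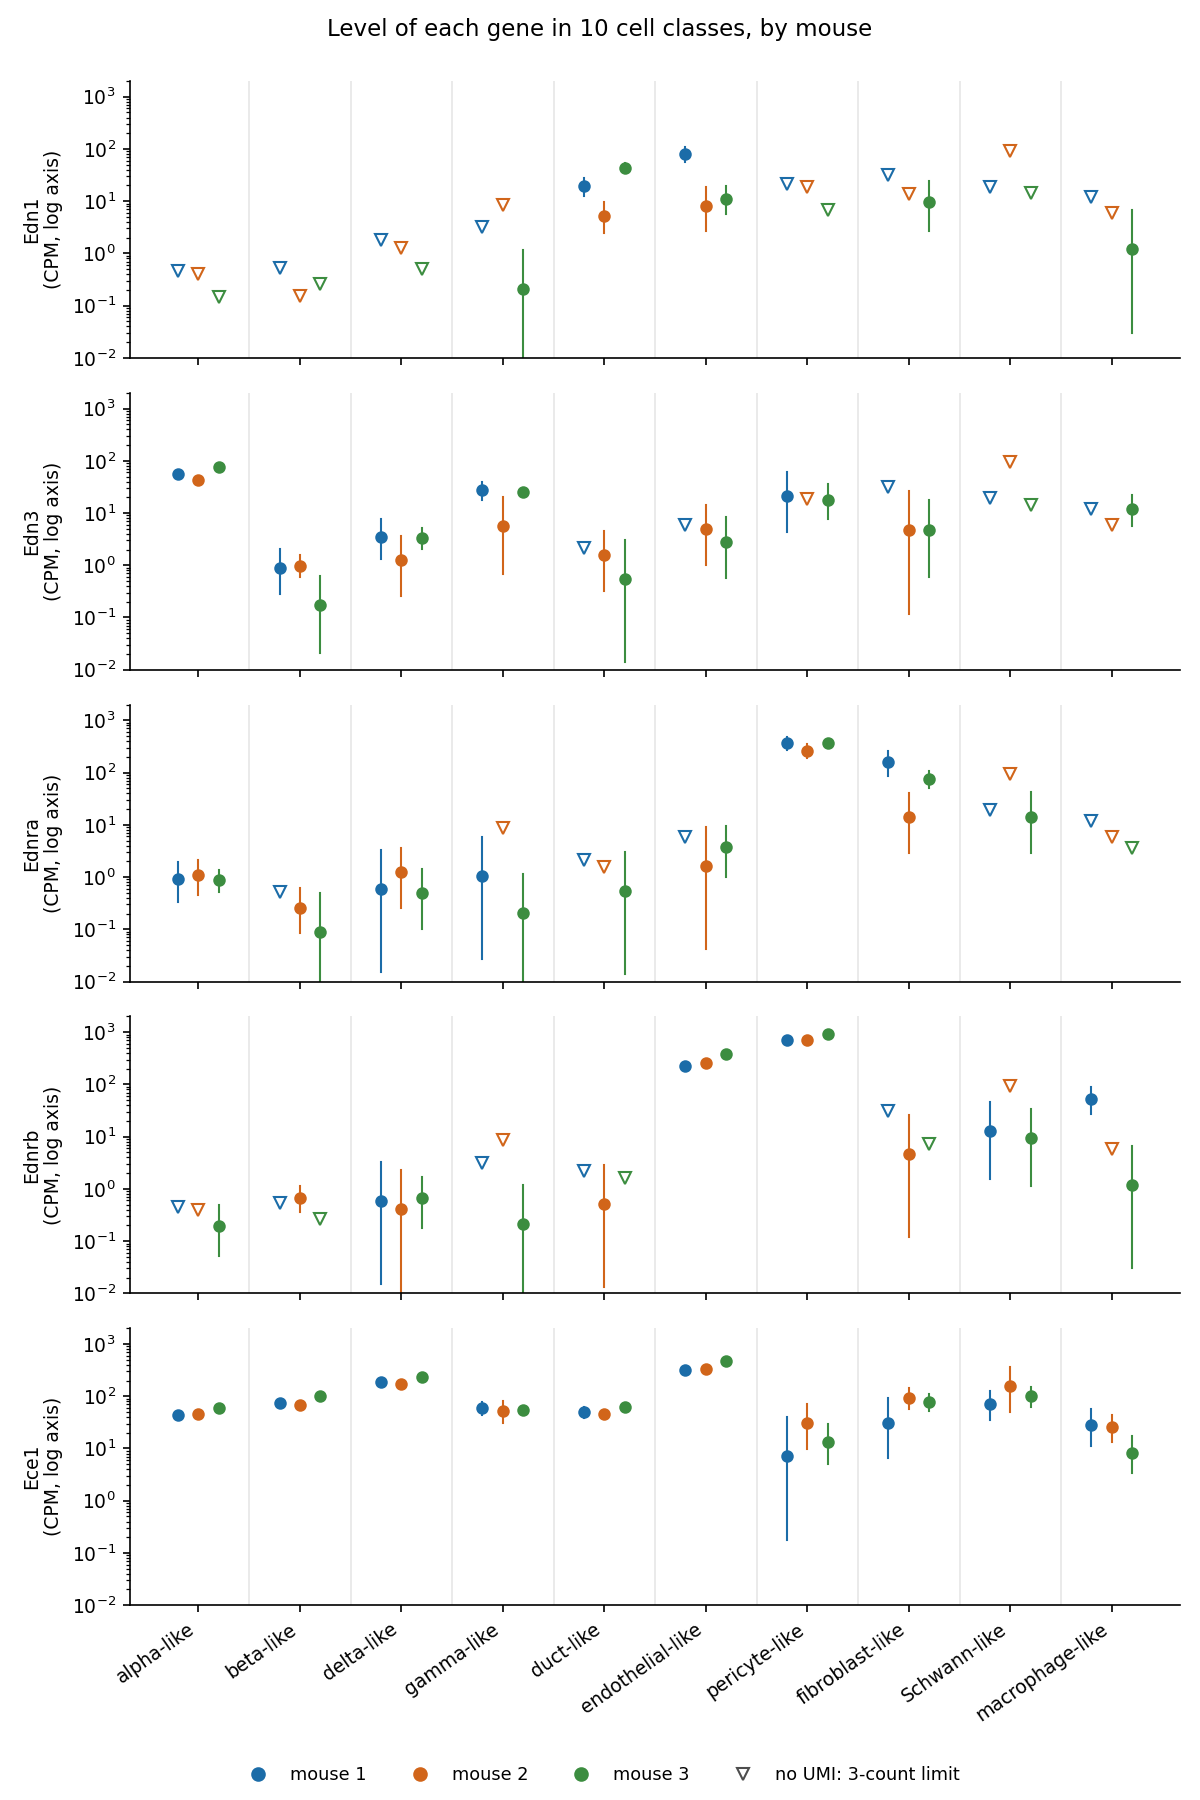
Level of each gene (CPM, log axis) in 10 cell classes, with 1 point per mouse, lines for the 95% Poisson interval (cut at the lower edge of the axis) and open triangles at the 3-count limit where a class held no UMI. Edn3 stands highest in alpha-like cells (43.3 to 77.0 CPM), Edn1 in duct-like and endothelial-like cells, Ednra and Ednrb in pericyte-like cells, and Ece1 in endothelial-like cells (324 to 463 CPM).

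Gamma-like cells, defined by pancreatic polypeptide, held the next level of Edn3 among the endocrine classes with a sum in every mouse. The values were 27.2 CPM in mouse 1 (26 UMIs, 21 cells), 5.70 CPM in mouse 2 (2 UMIs, 11 cells) and 25.7 CPM in mouse 3 (123 UMIs, 230 cells). The value of mouse 2 rests on a single cell, and all 3 lay below every alpha-like value. Alpha-like cells were 2.80-fold above gamma-like cells (log2 1.49, SE 0.26, edgeR adjusted p = 6.93e-04), in a comparison that called 8.86% of genes. The DESeq2 Wald test did not call this difference (adjusted p = 0.395, the highest of 19 alternatives, whose lowest was 7.59e-18), and clusters from the most variable genes raised it to 2.52 in log2. Gamma-like cells were in turn 14.8-fold above the mean of beta-like and delta-like cells (log2 3.89, SE 0.40, edgeR adjusted p = 1.89e-07), where 17.7% of genes were called. This was 4.49 in log2 without mouse 2 and ran from 2.24 with cells thinned to 6.87 with free RNA subtracted.

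Among the gamma-like cells of mouse 3, those rich in glucagon RNA held more Edn3. In that mouse, the 61 gamma-like cells with at least 5% of their UMIs from Gcg, the glucagon gene, held 58.9 CPM (47.6 to 72.2) of Edn3, and 52.5% of them had a UMI. The other 169 cells held 9.36 CPM (6.32 to 13.4), and 10.1% of them had a UMI. Only 2 cells lay between 4% and 6%. With Gcg under 1% of UMIs, 146 cells held 8.46 CPM (5.52 to 12.4). In mouse 1 the split did not separate the cells: 3 cells at or above 5% held 34.2 CPM (12.5 to 74.4) and 18 cells below it 25.7 CPM (15.7 to 39.7), with 20 of the 26 UMIs. The 14 cells of mouse 1 under 1% held 14.3 CPM (6.84 to 26.2). In mouse 2 both UMIs came from the 1 cell at or above 5%, and the other 10 cells held none, which allows 9.95 CPM. The cells of 1 mouse are not replicates, and the split was made after seeing the data, so these values carry no test.

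Set against glucagon RNA in the same cells, Edn3 gave 0.125, 0.0968 and 0.178 UMIs per 1000 Gcg UMIs in the alpha-like cells of mice 1, 2 and 3. Barcodes removed by the cell filters gave 0.222, 0.0889 and 0.253. Pooled over mice, beta-like cells had a ratio of 0.155 (0.101 to 0.228), within counting error of the alpha-like ratio of 0.150 (0.144 to 0.156). In each mouse the interval of the beta-like ratio also held the alpha-like value. The gamma-like ratio was above the alpha-like one in mouse 1 (0.878, 0.573 to 1.29) and mouse 3 (0.323, 0.269 to 0.386), but not in mouse 2 (0.104, 0.0126 to 0.376). Delta-like cells differed among mice, at 0.158, 0.109 and 0.634, with mouse 3 above its alpha-like value.

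**Figure D2:**
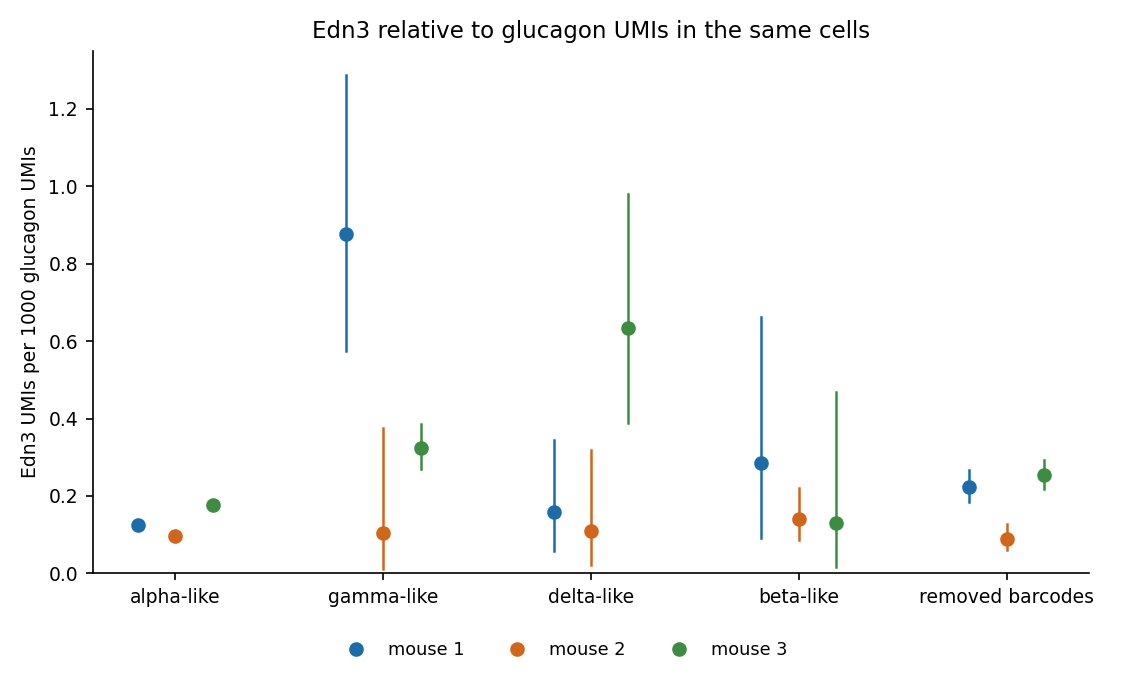
Edn3 UMIs per 1000 glucagon UMIs in 4 endocrine classes and in the barcodes removed by the filters, with 1 point per mouse and 95% exact intervals. The alpha-like values run from 0.0968 to 0.178, and the gamma-like values of mice 1 and 3 (0.878 and 0.323) lie above them.

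Outside the endocrine cells, pericyte-like cells held 21.3, 0.00 and 18.1 CPM of Edn3, from 3, 0 and 8 UMIs in 7 of 158 cells. Their pooled ratio was 1.48 UMIs per 1000 Gcg UMIs (0.738 to 2.65), above the alpha-like ratio in the same unit. Alpha cell markers summed to 0.412% to 1.51% of their UMIs, with 1 of the 10 markers at 0. In macrophage-like cells all 10 Edn3 UMIs came from 1 cell of mouse 3. Schwann-like cells had no Edn3 UMI in 70 cells, which allows 7.51 CPM, and endothelial-like cells held 6 UMIs in 375 cells.

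Edn1, the gene of the vasoconstrictor endothelin-1, was found in endothelial-like and duct-like cells and in no alpha-like, beta-like or delta-like cell. In endothelial-like cells its level was 79.6 CPM in mouse 1 (40 UMIs, 49 cells), 8.11 CPM in mouse 2 (5 UMIs, 84 cells) and 11.2 CPM in mouse 3 (12 UMIs, 242 cells). A single cell of mouse 1 held 27 of its 40 UMIs. Duct-like cells held 19.4, 5.24 and 43.1 CPM, from 27, 10 and 79 UMIs in 95, 147 and 134 cells. Mouse 1 was highest in endothelial-like cells and mouse 3 in duct-like cells, so the ranges of both classes overlapped.

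The 3930 alpha-like, beta-like and delta-like cells held 0 Edn1 UMIs among 81551259, which allows 0.0368 CPM (3 counts over all of them). Against that limit the observed pooled level was 708.5-fold higher in endothelial-like cells and 614.8-fold higher in duct-like cells. With the lowest mouse of each class it was 220.3-fold and 142.5-fold higher. These ratios bound the endocrine side only and leave out the counting error of the endothelial-like and duct-like levels. Without mouse 1 the endothelial-like ratio was 274.4, and without mouse 3 the duct-like ratio was 305.1. The edgeR test called both classes over the endocrine mean (endothelial-like adjusted p = 4.92e-08, with 55.0% of genes called, 27.2% higher and 27.9% lower, and duct-like adjusted p = 1.46e-08, with 59.2% called). The fitted log2 differences of 8.57 (SE 0.79) and 8.14 (SE 0.69) depend on the prior count, since every endocrine sum was 0. The DESeq2 Wald test ended both calls, with adjusted p = 0.0770 and 0.0952, each the highest of 19 alternatives that began at 5.36e-57 and 5.30e-74.

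Edn1 was not called between endothelial-like and duct-like cells (log2 0.43, SE 0.59, edgeR adjusted p = 0.610), although 43.0% of genes were. The sign of this difference followed single libraries and a single cell. It was -1.06 without mouse 1, 1.79 and called without mouse 3 (adjusted p = 4.75e-03, the lowest of 20 alternatives that reached 0.979), and -0.40 without the 1 endothelial-like cell with most Edn1 UMIs.

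Few endothelial-like cells carried Edn1. The shares with a UMI were 12.2%, 4.76% and 2.07% in endothelial-like cells and 9.47%, 4.76% and 25.4% in duct-like cells. Alpha-like cells, at median depths of 16192 UMIs or more, had a UMI in 0 of 1831 cells, which allows up to 0.164% of cells with a UMI and sets no limit on cells that express the gene. Endothelial-like cells were shallower, with medians of 4295 to 9234 UMIs. After thinning to 2000 UMIs the shares were 8.16%, 1.22% and 1.42% in endothelial-like and 3.61%, 0.855% and 8.94% in duct-like cells. Of the 15 endothelial-like cells with Edn1, 14 also had Ece1 and 9 had Ednrb.

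Pericyte-like and Schwann-like cells had no Edn1 UMI in 158 and 70 cells, which allows 4.02 and 7.51 CPM. The observed endothelial-like level, pooled over mice, was 6.48-fold above the pericyte-like limit and 3.47-fold above the Schwann-like limit. These ratios rest on mouse 1: without it they were 2.51 and 1.34, and with the lowest mouse 2.02 and 1.08. They leave out the counting error of the endothelial-like level. In mouse 2, the lowest, its interval (2.63 to 18.9 CPM) reached below both limits. The edgeR test called the pericyte-like difference (adjusted p = 0.0113, lower in 3 of 3 mice). That call ended without the mouse block, without mouse 2, with DESeq2, with at least 20 cells per sum, with at least 1000 genes per cell and with classes assigned per cell (adjusted p up to 0.653, the range over 19 alternatives starting at 7.15e-07). Fibroblast-like cells held 4 UMIs, all in mouse 3, and gamma-like and macrophage-like cells 1 UMI each.

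**Figure D3:**
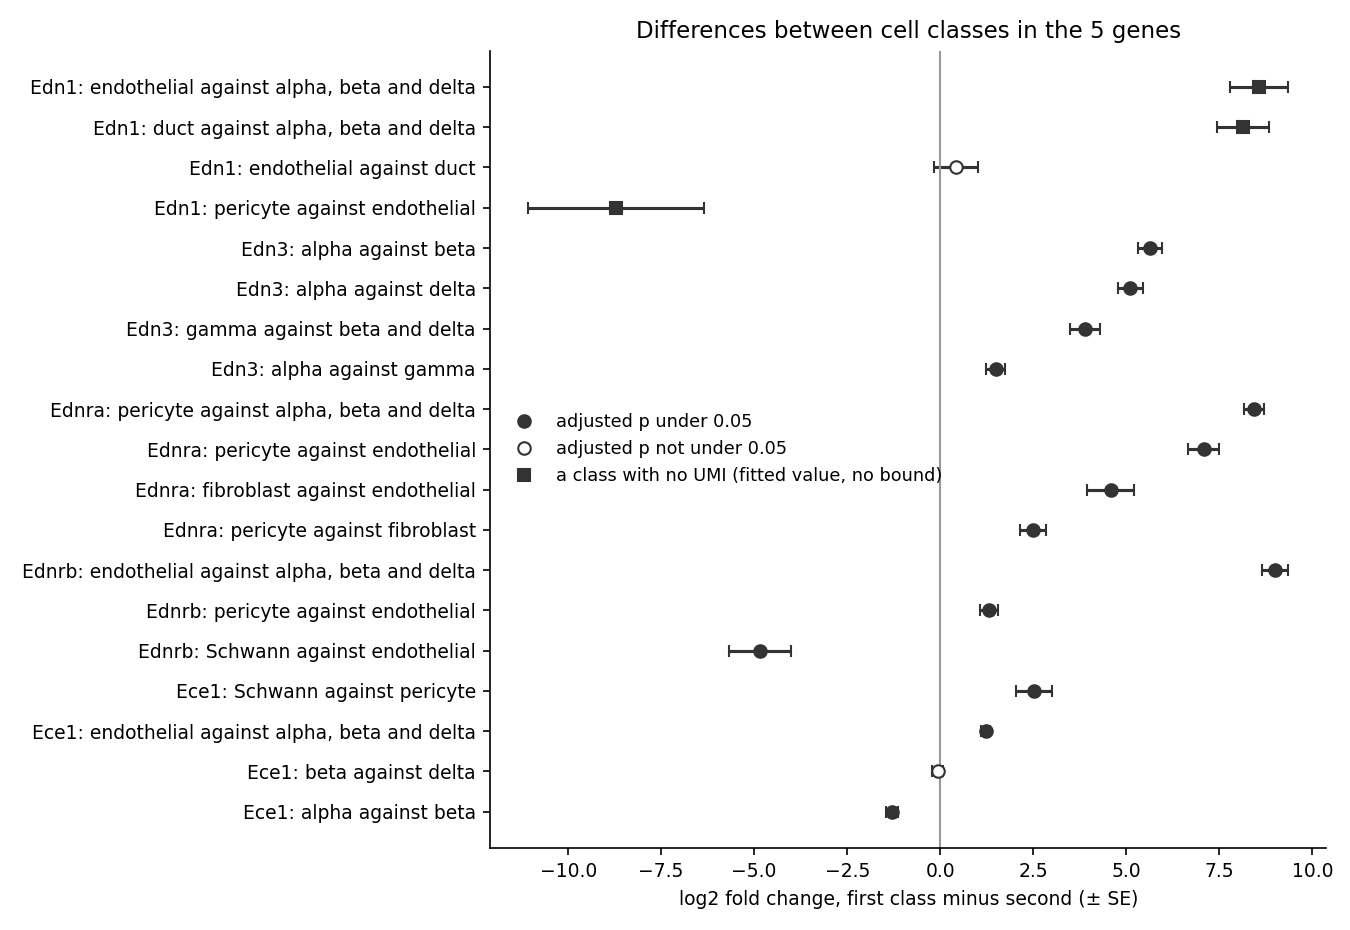
Log2 fold changes (first class minus second, bars ± SE) of the 19 tested differences, filled where the edgeR adjusted p was under 0.05, with squares where a class had no UMI, so that the fitted size is no bound. Of the 19 differences, 17 were called. Edn1 between endothelial-like and duct-like cells (0.43) and Ece1 between beta-like and delta-like cells (-0.06) were not. Of all genes, 8.86% to 59.2% were called in the same comparisons. The 19 were chosen with earlier results known, some after levels were seen, so the count of 17 is no measure of the family. Other members tested in these comparisons are not shown, and not all of them were called.

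Ednra, which encodes the contractile receptor ETA, was a gene of the pericyte-like cells. The level was 370 CPM in mouse 1 (52 UMIs, 15 cells), 264 CPM in mouse 2 (43 UMIs, 28 cells) and 375 CPM in mouse 3 (166 UMIs, 115 cells). Endothelial-like cells of the same mice held 0.00, 1.62 and 3.75 CPM, from 0, 1 and 4 UMIs, and the 4 UMIs of mouse 3 sat in 1 cell. The groups lay far apart without overlap. Pericyte-like cells were 135-fold above endothelial-like cells (log2 7.08, SE 0.42, edgeR adjusted p = 8.86e-22, 3 of 3 mice), where 24.1% of genes were called, 10.4% higher and 13.8% lower. Without mouse 3, which holds 4 of the 5 endothelial-like UMIs, the difference was 8.24 in log2, and 8.95 with cells thinned. They were also 344-fold above the mean of alpha-like, beta-like and delta-like cells (log2 8.43, SE 0.26, edgeR adjusted p = 6.93e-36), where 37.0% were called. That difference was 9.15 without mouse 2 and 7.05 to 9.28 over 19 alternatives.

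Fibroblast-like cells came next, at 157 CPM in mouse 1, 13.9 CPM in mouse 2 and 74.8 CPM in mouse 3. These rest on 6, 17 and 45 cells and on 15, 3 and 31 UMIs, and all 3 lay below the lowest pericyte-like value. In mouse 2, beta markers made up 34.5% of the fibroblast-like UMIs, against 1.45% and 0.803% in mice 1 and 3. What part this has in the low Ednra value of mouse 2 was not tested. The sum of mouse 1 was left out of the fit because it held fewer than 10 cells. With 2 mice, pericyte-like cells were 5.67-fold above fibroblast-like cells (log2 2.50, SE 0.35, edgeR adjusted p = 8.61e-08), where 13.5% of genes were called. The difference was 3.96 in log2 without mouse 3, which leaves only the fibroblast-like sum of mouse 2, and 1.89 with cells thinned. Fibroblast-like cells were 23.9-fold above endothelial-like cells (log2 4.58, SE 0.63, edgeR adjusted p = 3.14e-08, 23.1% of genes called). Without mouse 3, which leaves 1 fibroblast-like sum, this call ended (adjusted p = 0.0979, the highest of 17 alternatives, with a lowest of 2.99e-13), and with cells thinned the difference was 7.06 in log2.

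An Ednra UMI was found in 86.7%, 67.9% and 69.6% of pericyte-like cells and in 83.3%, 17.6% and 40% of fibroblast-like cells. After thinning to 2000 UMIs the shares were 40%, 28.6% and 45.5% in pericyte-like and 16.7%, 14.3% and 15.4% in fibroblast-like cells. In endothelial-like cells, at medians of 4295 to 9234 UMIs against 3640 to 7777 in pericyte-like cells, the shares were 0.00%, 1.19% and 0.413%. Macrophage-like cells had a UMI in 0 of 226 cells, which allows up to 1.33% of cells with a UMI. Alpha-like cells held 0.861 to 1.07 CPM, in 30 of 1831 cells, which overlapped the 0.496 to 1.26 CPM of delta-like cells. Because alpha-like cells were many and deep, they still held 7.59% to 12.5% of all Ednra UMIs in kept cells, against 65.8% to 72.5% in pericyte-like cells. Schwann-like cells held 3 UMIs, all in mouse 3.

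Ednrb, which encodes ETB, was found in both vascular classes. Pericyte-like cells held 704 CPM in mouse 1 (99 UMIs), 700.2 CPM in mouse 2 (114 UMIs) and 935 CPM in mouse 3 (414 UMIs). Endothelial-like cells held 225 CPM (113 UMIs), 253 CPM (156 UMIs) and 379 CPM (405 UMIs). Mouse 3 was highest in both, and the lowest pericyte-like value lay above the highest endothelial-like one. Pericyte-like cells were 2.48-fold above endothelial-like cells (log2 1.31, SE 0.24, edgeR adjusted p = 4.65e-04, 3 of 3 mice). The size held under all 20 alternatives, from 1.25 to 1.54 in log2, but the call ended with DESeq2 (adjusted p = 0.588, the highest), with free RNA subtracted (0.142) and without mouse 2 (0.0804), against a lowest of 2.36e-16.

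Endothelial-like cells were 511-fold above the endocrine mean in Ednrb (log2 9.0, SE 0.34, edgeR adjusted p = 5.57e-14, 3 of 3 mice). In all, 4 UMIs were counted in alpha-like, 13 in beta-like and 6 in delta-like cells. The 13 UMIs of beta-like cells were all in mouse 2, in 13 different cells. All came from the shallow beta-like cluster (558 cells, median 4455.5 UMIs), and the deeper beta-like clusters (350 and 317 cells) held none. Without mouse 2 the difference was 10.21 in log2, and it ran from 7.73 to 10.40 over 19 alternatives. Endothelial-like cells carried 48.6% to 52.5% of all Ednrb UMIs and pericyte-like cells 38.4% to 49.6%.

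Schwann-like cells, the glia of peripheral nerves and themselves of neural crest origin, held little Ednrb. Their level was 12.7 CPM in mouse 1 (2 UMIs, 27 cells), 0.00 CPM in mouse 2 (6 cells) and 9.52 CPM in mouse 3 (2 UMIs, 37 cells). In each of mice 1 and 3 both UMIs came from 1 cell. All 15 Schwann markers, from which the class was named, were higher in it than in the other kept cells. With mouse 2 left out for having under 10 cells, Ednrb was lower than in endothelial-like cells in 2 of 2 mice (log2 -4.84, SE 0.83, edgeR adjusted p = 2.66e-04, 21.4% of genes called). The call ended with DESeq2 (adjusted p = 0.0777) and without mouse 3 (log2 -4.02, adjusted p = 0.0985, the highest of 20 alternatives, with a lowest of 3.55e-23). Macrophage-like cells held 51.7, 0.00 and 1.19 CPM, and 10 of the 13 UMIs of mouse 1 came from 1 cell. Of 68 fibroblast-like cells, 1 had an Ednrb UMI.

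Pericyte-like cells often carried both receptor genes. In mice 1, 2 and 3 a UMI of both was counted in 66.7%, 60.7% and 55.7% of cells. Of 158 cells, 91 had both, 21 had Ednra alone, 38 had Ednrb alone and 8 had neither. Cells with neither had a median of 3357 UMIs against 4458 in cells with both, and missed molecules at this depth cannot be told apart from absence. Fibroblast-like cells gave another picture: 26 of 68 had Ednra alone, 1 had Ednrb alone and none had both.

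Shares of cells with an Ednrb UMI were 73.3%, 85.7% and 81.7% in pericyte-like cells and 83.7%, 67.9% and 66.9% in endothelial-like cells. Thinned to 2000 UMIs they were 66.7%, 60.7% and 69.3% against 30.6%, 42.7% and 49.1%. Before thinning the ranges of both classes overlapped, and after it they did not. In alpha-like cells, at medians of 16192 to 27037 UMIs, 4 of 1831 cells had a UMI.

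**Figure D4:**
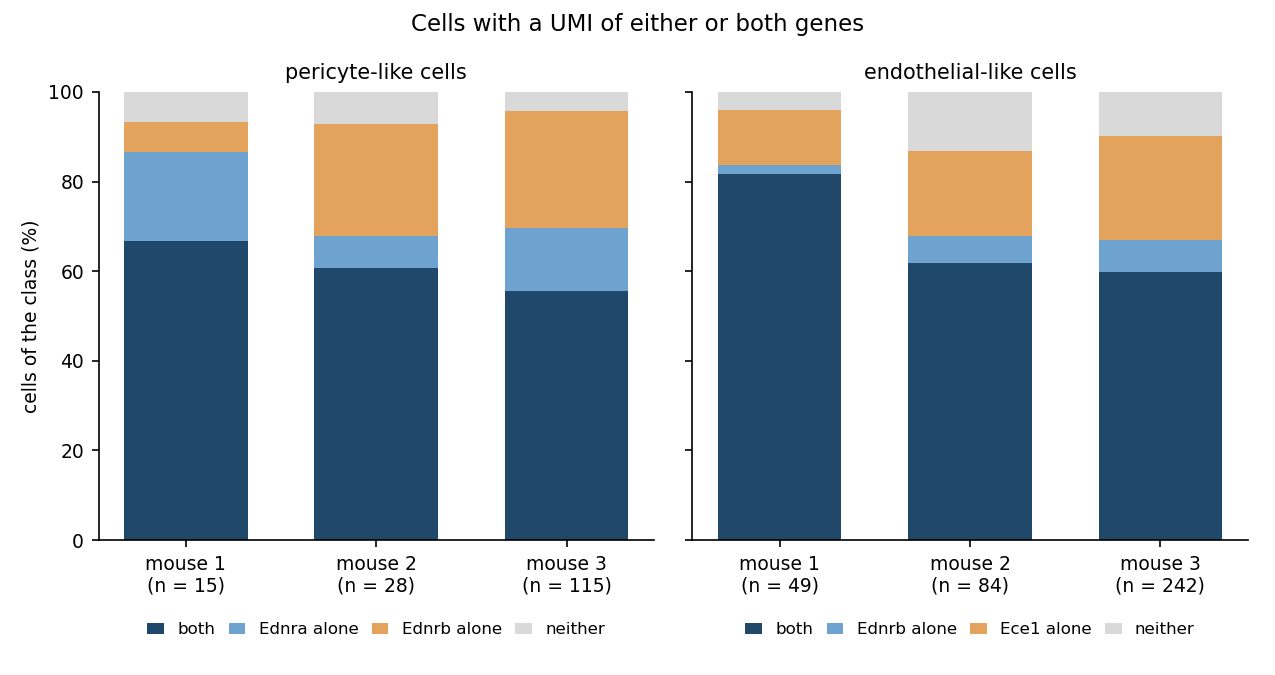
Percent of pericyte-like cells (left) with UMIs of Ednra, Ednrb, both or neither, and of endothelial-like cells (right) with UMIs of Ednrb, Ece1, both or neither, in each mouse, with n cells under each bar. Both genes were counted in 55.7% to 66.7% of pericyte-like cells and 59.9% to 81.6% of endothelial-like cells.

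Ece1, whose product releases the active peptide, was found in most classes and was highest in endothelial-like cells. Levels there were 324 CPM in mouse 1 (163 UMIs), 337 CPM in mouse 2 (208 UMIs) and 463 CPM in mouse 3 (494 UMIs). Among the endocrine classes, delta-like cells were highest with 189, 174 and 229 CPM, and then beta-like cells with 73.7, 68.6 and 101 CPM. Alpha-like cells held 43.3, 45.7 and 58.7 CPM, gamma-like cells 58.7, 51.3 and 55.4 CPM, and duct-like cells 49.7, 45.1 and 63.3 CPM. As plain CPM, endothelial-like, delta-like and beta-like values did not overlap one another, whereas those of gamma-like and duct-like cells overlapped the alpha-like range. On the TMM scale of the tests, duct-like cells averaged 31.0 CPM and alpha-like cells 57.7 CPM.

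The test placed the endothelial-like level 2.33-fold above the endocrine mean (log2 1.22, SE 0.12, edgeR adjusted p = 2.87e-13, 3 of 3 mice). Alpha-like cells were 2.45-fold below beta-like cells (log2 -1.29, SE 0.15, edgeR adjusted p = 1.14e-10, lower in 3 of 3 mice). That size is on the TMM scale. As plain CPM the means were closer, at 49.2 in alpha-like and 81.2 in beta-like cells. For beta-like against delta-like cells the scale mattered more. As plain CPM the delta-like values were higher in every mouse. TMM scaling, which discounts the few hormone genes that fill beta-like libraries, gave 142 CPM ± 20 (SD, n = 3) in beta-like and 148 CPM ± 16.1 in delta-like cells. On that scale the difference was -0.06 in log2 (SE 0.15, edgeR adjusted p = 0.811), while 33.4% of genes were called.

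At the low end, pericyte-like cells held 7.11, 30.7 and 13.6 CPM of Ece1, from 1, 5 and 6 UMIs. Their level was below that of endothelial-like cells in 3 of 3 mice (log2 -4.72, SE 0.31, edgeR adjusted p = 3.99e-20). As plain CPM, acinar-like cells were lower still, from 16 UMIs in 165 cells. TMM scaling reversed this order, with factors of 0.152 to 0.321 in acinar-like and 1.61 to 1.71 in pericyte-like sums. No test was run between these classes. Schwann-like cells held 69.9, 155 and 99.99 CPM, from 11, 5 and 21 UMIs, all above the pericyte-like values. In the 2 mice with enough cells the Schwann-like level was 5.78-fold above the pericyte-like one (log2 2.53, SE 0.48, edgeR adjusted p = 5.84e-05, 12.6% of genes called). Without mouse 3 (adjusted p = 0.0677) and with cells thinned (0.195, the highest of 20 alternatives, with a lowest of 4.01e-07) the call ended, and with free RNA subtracted the difference was 3.97 in log2.

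An Ece1 UMI was counted in 93.9%, 81.0% and 83.1% of endothelial-like cells and in 60.2%, 55.3% and 54.0% of alpha-like cells. At 2000 UMIs per cell these shares were 53.1%, 46.3% and 62.3%, and 8.18%, 12.5% and 11.9%. Delta-like cells (29.4%, 24.2% and 36.5%) lay above beta-like cells (17.1%, 13.8% and 17.7%) after thinning, a measure that like plain CPM counts hormone UMIs in the total. In endothelial-like cells Ece1 and Ednrb often occurred together, in 237 of 375 cells, with 78 cells having Ece1 alone and 23 Ednrb alone. In alpha-like cells 557 of 1831 had both Edn3 and Ece1, and 272 had Edn3 without Ece1.

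**Figure D5:**
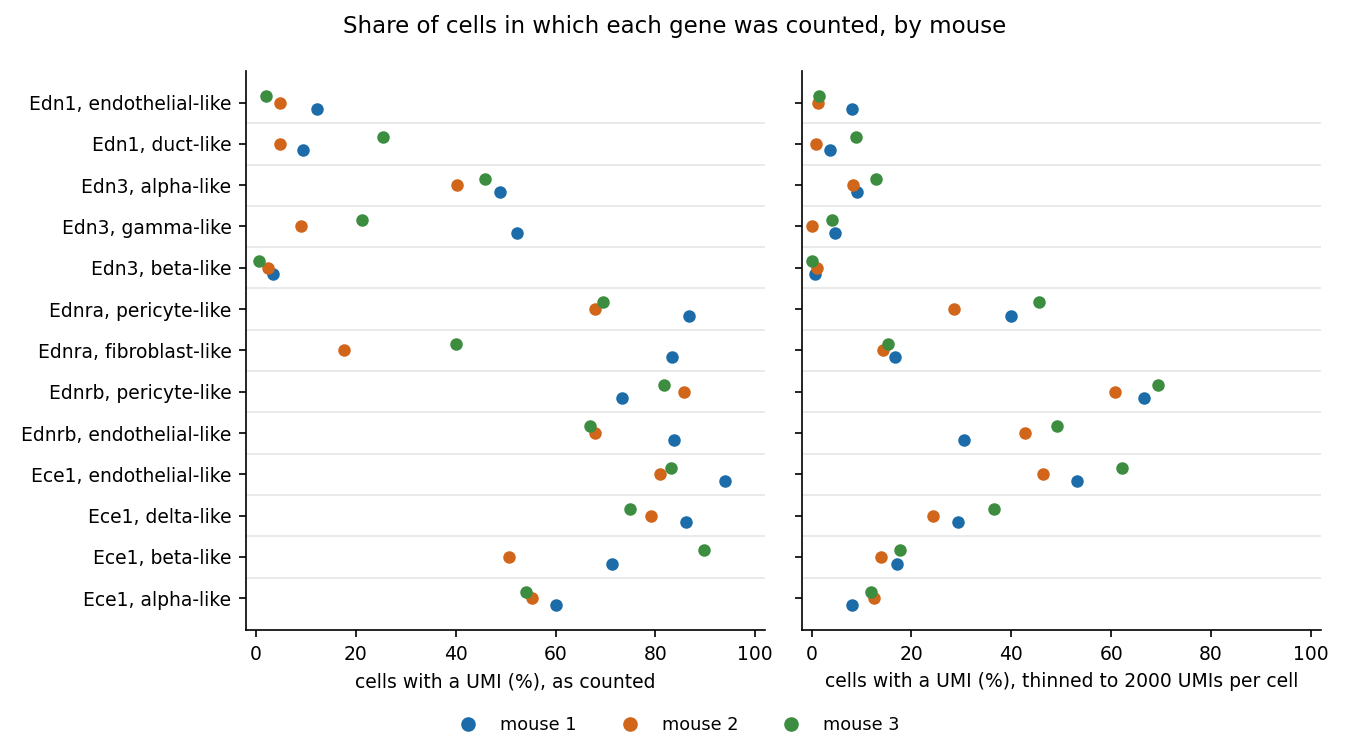
Percent of cells with at least 1 UMI, as counted (left) and after each cell was thinned to 2000 UMIs (right), for 13 pairs of a gene and a class, with 1 point per mouse. Thinning lowers Edn3 in alpha-like cells from between 40.2% and 48.9% to between 8.21% and 12.9%, and separates Ednrb in pericyte-like cells (60.7% to 69.3%) from endothelial-like cells (30.6% to 49.1%).

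Other genes of endothelin production and response were counted from lists. Of 7 tested genes of ligands and processing, 2 were higher and 0 lower in alpha-like than beta-like cells, both of them proprotein convertases that cut precursors of this kind: Pcsk5 (log2 2.59) and Pcsk7 (log2 0.77). The median of this list was -0.35 against 0.01 over all genes, of which 18.4% were higher and 18.3% lower. In endothelial-like cells 4 were higher and 2 lower than in the endocrine mean (list median 0.84, all genes -0.13), with Pcsk5 (log2 5.24) and Furin (log2 1.22) higher and Pcsk6 (log2 -7.13) lower. None of the 7 passed between pericyte-like and endothelial-like cells.

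Genes that act downstream of the receptors were compared between the vascular classes. Of 24 G protein and second messenger genes, 3 were higher in pericyte-like than endothelial-like cells (list median -0.36 against -0.06 over all genes), led by Rgs4 (log2 7.28), which shuts off Gq and Gi proteins, and 6 lower, including Plcb1 (log2 -3.67) and Gnai2 (log2 -1.80). Over all genes, 10.4% were higher and 13.8% lower in the same comparison. The nitric oxide and prostanoid list had 5 of 11 higher and 4 lower (median 2.48). The soluble guanylate cyclase genes Gucy1a1 (log2 7.35) and Gucy1b1 (log2 5.01), the receptors of nitric oxide, were higher, and Cav1 (log2 -1.15) was lower. In endothelial-like cells 7 of 11 genes of that list were above the endocrine mean and 0 below (median 2.85), among them Nos3, the endothelial nitric oxide synthase (log2 2.85).

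Most regulators of Edn1 were higher in endothelial-like cells than in the endocrine mean, where 27.2% of all genes were higher. The list was not counted in duct-like cells, which also held Edn1. Of 14 tested, 11 were higher and 1 lower than in the endocrine mean (median 2.11 against -0.13 over all genes), led by the BMP and TGF-beta receptor genes Eng (log2 10.38), Acvrl1 (log2 9.39) and Bmpr2 (log2 4.09). In pericyte-like cells 9 were lower and 1 higher than in endothelial-like cells. Between alpha-like and beta-like cells 4 were higher and 2 lower, with Klf4 (log2 4.00) higher. Of 5 tested neural crest regulators of Ednrb, Zeb2 was higher in pericyte-like than endothelial-like cells (log2 4.57) and the other 4 were not called.

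Other vasoactive receptors split between the same classes. All 9 tested differed between pericyte-like and endothelial-like cells, 6 higher and 3 lower, where 24.1% of all genes were called. The ATP receptor gene P2rx1 (log2 6.22) was higher, and Calcrl (log2 -3.21) and Ramp2 (fitted log2 -13.62), which together form an adrenomedullin receptor, were lower. The fitted size for Ramp2 is not a measured fold, since the 158 pericyte-like cells held 746142 UMIs in all, few for so large a difference. Of 8 tested ligands, 2 were higher and 3 lower in endothelial-like cells than in the endocrine mean, with Apln (log2 7.74) and Adm (log2 6.87) higher and Agt, the angiotensinogen gene (log2 -4.28), lower. In alpha-like against beta-like cells the counts were 2 higher and 2 lower, with Calca (log2 4.83) higher and Npy (log2 -5.65) lower. Over all genes, 18.4% were higher and 18.3% lower there. These counts are read beside the shares of all genes called in the same comparisons, given above.

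The genes whose levels ran most like each of the 5 over the 33 class sums were named by Pearson correlation of log2(CPM + 10) among 12579 genes. The sums share libraries and a class appears up to 3 times, so r is a description. Edn3 was most like Vwde (r = 0.880), Nxph1 (0.855), Avpr1b (0.849), the vasopressin V1b receptor gene, Aard (0.842) and Pou3f4 (0.837). Ednra was most like Tpm2 (0.989), Aspn (0.988), Cyp4b1 (0.984), Ebf2 (0.980) and Cacng7 (0.979). Ednrb was most like Gja4 (0.963), the connexin 37 gene, Tcf15 (0.957), Hoxb5 (0.934), Sncg (0.934) and Epas1 (0.928). Lower values came with Edn1, whose nearest genes were Ces2g (0.841), Usp43 (0.832), Zfp711 (0.831), Fam171a2 (0.811) and Lrg1 (0.804), and with Ece1, nearest to Rhbdl2 (0.823), Zhx3 (0.810), Pik3r3 (0.796), Enpp2 (0.794) and Nav3 (0.790). Among the 5 genes themselves the highest r was that of Ednra and Ednrb (0.692), and the lowest that of Ednra and Ece1 (-0.425).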

How the data were processed

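The labels name a 10x Genomics 3′ v2 protocol. Cell Ranger 2.2 and mm10 are named in the submitters' processing notes, whereas the matrix headers give software version 3.1.0. The deposited matrices hold UMI counts per gene and barcode, per the file headers and values, unnormalized. Barcodes with under 500 genes, or over 15% of UMIs from mitochondrial genes, were left out. Scrublet's own threshold marked 31 of 7490 cells (0.414%), so the top-scoring 0.8% per 1000 barcodes of a library were removed instead (317 cells). Leiden clusters came from 160 marker genes without the 5 described here (scanpy 1.11.5, 20 components, 20 neighbours, resolution 1). A name needed at least 3 markers among 30 leading genes and 1 among the first 10. A non-endocrine cluster with over 20% of UMIs from 1 hormone stayed unnamed, a rule added after seeing the data.

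Counts were summed per mouse and class (at least 10 cells, 33 sums) and tested with edgeR 4.0.16 (quasi-likelihood, robust, TMM, filterByExpr, mouse as block, FDR 0.05, 2-sided). All 5 genes passed the low-count filter. The block pairs class sums of the same animal and library. The comparisons of Ece1 between beta-like and delta-like and between Schwann-like and pericyte-like cells, those of Edn1 in duct-like cells, and those of Ednra against the endocrine mean and in fibroblast-like against endothelial-like cells were added after levels were seen. SE is the size of the log2 fold change divided by the root of F. Shares and levels have exact binomial or Poisson intervals, at 95%. In simulated alpha-like against beta-like sums of 12929 genes, the test called 98% of 2-fold and 100% of 4-fold changes. The changed genes were drawn from those well counted in alpha-like cells, with the same spread for every gene and no mouse effect. These shares therefore do not apply to genes near 0 or to the smaller classes. The named genes are the 5 genes, the 5 most like each (markers and numbered gene models left out) and up to 3 genes per list and comparison with the smallest p among those called. Gene positions are those of GENCODE M21, in which 30934 of 31053 identifiers were found. The genes and lists were chosen with earlier results of these data known. The result of 1 of the gene lists is not reported here.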

Additional observations from a re-analysis of the deposited data

Results flagged for a closer look

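UMIs of all 5 genes were also counted outside the named classes, above the 3 counts that a count of 0 allows. The 8989 barcodes removed by the filters held 9 UMIs of Edn1, 339 of Edn3, 31 of Ednra, 138 of Ednrb and 1701 of Ece1. The 1434 kept cells of clusters without a name held 5 UMIs of Edn1, 40 of Edn3, 5 of Ednra, 11 of Ednrb and 708 of Ece1. None of these counts enters a comparison.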

How the results depend on the processing

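In 19 comparisons of single genes, 344 of 365 alternative values kept their direction and their side of the threshold, and 10 comparisons did so throughout. DESeq2's Wald test kept every direction but not 6 calls: Edn3 alpha-like against gamma-like (1.54), Edn1 endothelial-like and duct-like against the endocrine mean (9.20 and 8.63), Ednrb (1.46) and Edn1 (-4.93) pericyte-like against endothelial-like, and Ednrb Schwann-like against endothelial-like (-4.37), all as log2. Further calls of Edn1 in pericyte-like against endothelial-like cells ended without the replicate block by mouse (-8.74, adjusted p = 0.120), with at least 20 cells per sum (-8.65), at least 1000 genes per cell (-8.61) and classes per cell (-9.08). Pericyte-like, alpha-like, beta-like and delta-like cells held no Edn1 UMI. The fitted Edn1 sizes against these classes, here and below, are therefore not measured folds. The block changed no other call of the 19. With free RNA subtracted the Ednrb call of pericyte-like against endothelial-like cells ended (1.35), and with cells thinned to 2000 UMIs that of Ece1 in Schwann-like against pericyte-like cells (1.96). Leaving out each mouse in turn gave 1.25 to 1.47 for Ednrb pericyte-like against endothelial-like, -8.95 to -7.64 for Edn1 in the same classes, -5.33 to -4.02 for Ednrb Schwann-like against endothelial-like, 4.23 to 4.88 for Ednra fibroblast-like against endothelial-like, 2.12 to 3.02 for Ece1 Schwann-like against pericyte-like, and -1.06 to 1.79 for Edn1 endothelial-like against duct-like. Where this leaves a class with 1 sum, that sum is assumed to vary like the other classes. The Edn1 difference between endothelial-like and duct-like cells also reversed in thinned cells (-0.36) and without its top cell (-0.40), an alternative chosen after seeing the data. Apart from settings with fewer samples, cells or UMIs, the cause was not tested. Of 269 counts of genes called, 38 moved by over 1.5 times. Thinning lowered all 14: alpha-like against beta-like from 4909 to 954, delta-like from 3840 to 935 and gamma-like from 1185 to 132, gamma-like against beta-like and delta-like from 2367 to 358, beta-like against delta-like from 4471 to 939, endothelial-like, duct-like and pericyte-like against the endocrine mean from 7363 to 3693, from 7920 to 3041 and from 4951 to 2643, endothelial-like against pericyte-like, Schwann-like, fibroblast-like and duct-like from 3228 to 1650, from 2857 to 1354, from 3088 to 1261 and from 5754 to 2315, and pericyte-like against fibroblast-like and Schwann-like from 1811 to 728 and from 1690 to 828. Without mouse 3, 8 counts fell, among them pericyte-like against fibroblast-like (650) and Schwann-like (679), the endocrine mean (2855) and endothelial-like (1905), fibroblast-like (1447) and Schwann-like (1306) against endothelial-like, and gamma-like against beta-like and delta-like (935). With free RNA subtracted, 7 fell, among them alpha-like against beta-like (3181) and delta-like (1959), gamma-like (1152) and beta-like (2787) in the comparisons named above, and pericyte-like against fibroblast-like (1057) and Schwann-like (1110). Fitting only the classes compared lowered the pericyte-like counts against fibroblast-like (1204) and Schwann-like (1013) and that of fibroblast-like against endothelial-like (1997). The alpha-like against gamma-like count also became 1962 there, 333 with free RNA subtracted, 579 without the mouse block, 662 with a lower minimum of genes per cell, 724 at resolution 0.5, and 710, 657 and 506 without mouse 1, 2 and 3.

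Depth limits the scarce genes most: Edn1 in endothelial-like cells rests on 57 UMIs, and Ednrb in Schwann-like cells on 4. Classes assigned per cell left fewer than 2 sums of 10 cells for gamma-like, delta-like and fibroblast-like cells, so no comparison with these, the endocrine mean included, was run under that setting. All classes come from 3 mice. With the mouse as a block, p-values measure how class differences vary between these mice, with the spread estimated over all classes.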
